A study of Mus musculus with 8 samples.

Results

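The genes described here encode the machinery that burns fatty acids in mitochondria and peroxisomes, with 3 genes that control it. They were taken from a list of 34 gene symbols, and 33 had a row of their own on the array, of 22180 genes tested in all. The row that carries Cpt1b also carries neighbouring genes, so Cpt1b is not analysed here. Of the 33, 17 act in mitochondria, 10 in peroxisomes and 3 in both, and the last 3 are the regulators Ppara, Ppargc1a and Pdk4. For the 2 genes with more than 1 row, Crat and Slc27a2, the brighter row was used.

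The study measured total RNA of whole mouse pancreas (strain C57 BL6) on 8 arrays, 6 days after tamoxifen was injected into the peritoneum at 3 mg per 40 g of body weight. The 4 LmnaKO pancreata, called KO, came from 3 males and 1 female, and the 4 LmnaWT pancreata, called WT, also from 3 males and 1 female. The females were KO 4 and WT 4, so leaving out either array also leaves out the female of its genotype. Tamoxifen is given in the labels of both genotypes. According to the series title, Lmna, which encodes the nuclear envelope filament lamin A/C, was lost in acinar cells, the enzyme-secreting cells of the pancreas. The sources used here do not give the promoter that drives the deletion, the age of the mice or whether WT mice carried a recombinase.

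Long-chain fatty acids enter mitochondria as carnitine esters, which Cpt1 and Cpt2 make and unmake on either side of the carrier Slc25a20. Inside, acyl-CoA dehydrogenases, hydratases, hydroxyacyl-CoA dehydrogenases and thiolases shorten the chain step by step, and the electrons pass through the flavoproteins Etfa, Etfb and Etfdh to the respiratory chain. Peroxisomes shorten very long and branched chains with their own enzymes and hand the products to mitochondria as carnitine esters, which Crot makes. PPAR alpha, encoded by Ppara, and its coactivator PGC-1 alpha, encoded by Ppargc1a, are the best known activators of these genes, and Pdk4 shuts off pyruvate oxidation when fat is used.

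Values are log2 expression as deposited, and a change is KO minus WT with its standard error from limma, n = 4 arrays per group throughout. A gene was called at an adjusted p under 0.05 over all 22180 genes. The labels name separate samples and say no more of the animals, so each p reflects only how these samples spread. The Lmna row was dim and averaged 2.56 ± 0.17 in KO and 2.81 ± 0.26 in WT (SD), a change of -0.24 ± 0.15 that was not called (adjusted p = 0.264), so it does not check the labels; the position of its probes relative to the deletion is unknown. The acinar enzymes Cpa1 and Ctrb1 averaged 12.11 and 12.31 in KO and 12.24 and 12.37 in WT, near the top of the scale. The interquartile range over genes was 2.88 to 3.03 in KO and 2.11 to 2.48 in WT, so values were spread wider in KO. Genes of middle level were mostly higher in KO: the 5996 genes with a mean of at least 4 and under 8 had a median change of 0.46, against -0.06 over all genes. In whole tissue, fewer cells of a type and less RNA per cell cannot be told apart.

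Of the 33 genes, 6 were higher in KO and 1 was lower. The higher genes were the carnitine shuttle genes Slc25a20 and Cpt2, the dehydrogenases Acadl and Acads, the trifunctional protein subunit Hadha and the peroxisomal carnitine transferase Crot, and the lower gene was Ppargc1a. Over all genes, 14.6% were called higher and 6.99% lower. At a mean of at least 4 and under 8, where 25 of the 33 lie, 36.8% of all genes were called higher, against 5 of these 25, and 3.74% lower, against 0 of these 25. The median change of the 30 enzymes and carriers was 0.34 and 24 of them had a positive change, while 82.2% of all genes in that range of levels had one. The groups did not overlap in 9 of the 33 genes, against 27.4% of all genes, and in 6 of the 25, against 42.3% of all genes of that range. These shares lie near the background of all genes and below that of genes of the same level, so the counts are no result about the set, and the account below is of its individual genes.

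**Figure D1:**
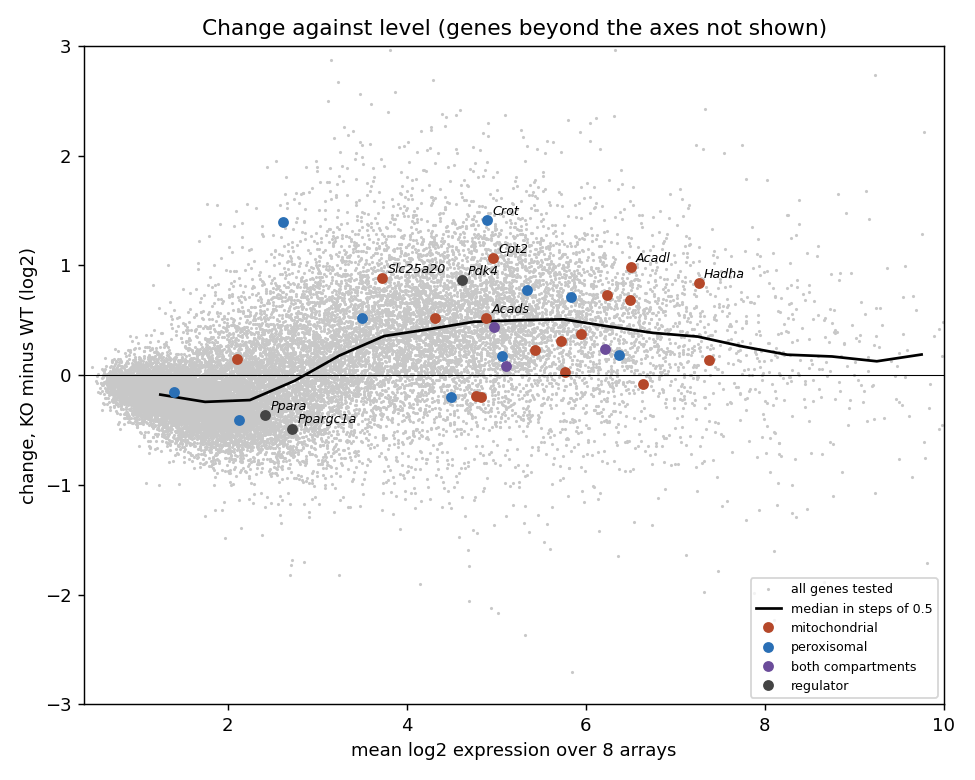
Change between genotypes (KO minus WT, log2) against the mean log2 expression over 8 arrays for all genes tested (grey points), with the median in steps of level (black line) and the fatty acid oxidation genes in colour by compartment. Most coloured points of middle level lie around the black line; Crot, Cpt2 and Acadl stand above it, and Ppara and Ppargc1a lie at dim levels below 0.

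The carnitine shuttle held the steadiest change of the mitochondrial genes. Slc25a20, the carnitine-acylcarnitine translocase of the inner membrane, read 4.21, 4.48, 4.03 and 3.97 in KO 1 to KO 4, against 3.50, 3.23, 3.30 and 3.12 in WT 1 to WT 4. All KO arrays lay above all WT arrays, and the gene rose by 0.89 ± 0.15 (1.85-fold, adjusted p = 0.00478). It was called under each of the 17 alternatives that tested it, with changes of 0.66 to 1.02. Cpt2, which returns the acyl group to coenzyme A inside the mitochondrion, read 5.84, 5.28, 5.42 and 5.45 in KO, against 5.16, 3.68, 4.57 and 4.31 in WT. The groups did not overlap, though WT 1 came close to KO 2, and the rise was 1.07 ± 0.28 (2.10-fold, adjusted p = 0.0245). It was called in 11 of 18 alternatives, and not without KO 1 (0.95), KO 3 (1.09), KO 4 (1.08) or WT 4 (1.03).

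Cpt1a, the outer membrane enzyme that sets the rate of fatty acid entry, did not separate the genotypes. It read 6.86, 6.70, 6.66 and 6.20 in KO, against 6.85, 5.34, 6.18 and 5.12 in WT. WT 1 was as high as the highest KO array, and the change of 0.73 ± 0.34 did not pass (adjusted p = 0.143). Without WT 1 it was 1.06 and passed (adjusted p = 0.0194).

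The peroxisomal counterpart of the shuttle showed the largest called change of the set. Crot, carnitine O-octanoyltransferase, moves medium-chain acyl groups onto carnitine so that they can leave the peroxisome. It read 5.71, 5.63, 5.60 and 5.46 in KO, against 4.82, 4.09, 4.40 and 3.44 in WT. The KO arrays lay within a narrow range above all WT arrays, and the rise was 1.41 ± 0.25 (2.66-fold, adjusted p = 0.00622). It was called in 18 of 18 alternatives, with changes of 1.03 to 1.63. Crat, which does the same for acetyl groups in both compartments, differed by 0.08 ± 0.17 (adjusted p = 0.742), and its second, dimmer row pulled the mean of its rows to -0.26.

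Crot and Slc25a20 are the 2 genes called under every alternative, so their promoters are shown, from 250 bases before to 50 bases after the gene start, as RefSeq gives them for GRCm38.p6. Capitals mark GC boxes (GGGCGG on either strand), the site bound by Sp1-family factors. The Crot window lies on the minus strand at chr5:8997097-8997396 and the Slc25a20 window on the plus strand at chr9:108661886-108662185.
Crot: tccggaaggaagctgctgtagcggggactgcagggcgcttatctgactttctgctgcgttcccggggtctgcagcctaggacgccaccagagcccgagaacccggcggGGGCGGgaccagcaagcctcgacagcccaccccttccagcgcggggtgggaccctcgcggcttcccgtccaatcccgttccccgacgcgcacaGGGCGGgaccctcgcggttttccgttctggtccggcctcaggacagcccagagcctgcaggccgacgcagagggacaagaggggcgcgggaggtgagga
Slc25a20: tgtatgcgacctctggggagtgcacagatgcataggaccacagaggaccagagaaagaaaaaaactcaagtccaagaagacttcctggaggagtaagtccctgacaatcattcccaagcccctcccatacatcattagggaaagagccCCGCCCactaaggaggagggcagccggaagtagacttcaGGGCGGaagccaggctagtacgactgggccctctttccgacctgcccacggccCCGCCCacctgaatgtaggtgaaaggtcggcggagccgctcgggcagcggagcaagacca
The Crot window held 2 GC boxes and the Slc25a20 window 3, and their G and C content was 69.7% and 58%. Promoters of 28 of the 34 genes were matched by symbol, in 29 windows. A GC box was found in 21 of the 29 windows, and in 35.7% of all 32851 promoter windows. The CCAAT box, searched as well, was in 11 of 29 and in 37.4% of all. The windows compared were not matched for G and C content.

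The windows were also searched on both strands for the sites named after the regulators. The direct repeat bound by PPAR and its partner RXR, AGGTCA repeated after 1 base, was in 0 of the 29 windows and in 0.0396% of all windows. With AGGNCA as the repeated unit it was in 0 of 29 and in 0.381%. The site of the estrogen-related receptors, partners of PGC-1 alpha, TCAAGGTCA, was in 0 of 29 and in 0.423%. The single unit AGGTCA, which lies within the PPAR repeat and the estrogen-related receptor site, was in 5 of 29 windows (Acadm, Acadvl, Cpt1a, Echs1 and Slc27a2) and in 16.3% of all. The further element TGATGNAA, searched as well, was in 1 of 29 windows (Echs1) and in 3.97% of all. The PPAR repeats and the estrogen-related receptor site were so rare among all windows that 0 matches in 29 cannot show that these genes lack them. These matches describe letters in short windows and no binding.

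Of the 4 acyl-CoA dehydrogenases, which take the chain-shortening steps by chain length, Acadl and Acads were higher. Acadl, the long-chain enzyme, read 7.21, 6.89, 7.17 and 6.70 in KO, against 6.32, 5.39, 6.47 and 5.87 in WT. The groups did not overlap, and the rise was 0.98 ± 0.23 (1.98-fold, adjusted p = 0.018), which did not pass without KO 3 (0.93). Acads, the short-chain enzyme, read 5.32, 4.93, 5.28 and 5.06 in KO, against 4.78, 4.53, 4.90 and 4.30 in WT. KO 2 lay barely above WT 3, and the rise of 0.52 ± 0.16 (1.43-fold, adjusted p = 0.0442) was near the median of all genes of its level. It was called in 9 of 18 alternatives, and not without KO 1 (0.46), KO 3 (0.47), KO 4 (0.55), WT 2 (0.48) or WT 4 (0.41). Acadvl, the very-long-chain enzyme, had the same size of change, 0.52 ± 0.19, with no overlap between groups, and did not pass (adjusted p = 0.0744; after median centring adjusted p = 0.0426). Acadm, the medium-chain enzyme, overlapped widely (0.38 ± 0.30, adjusted p = 0.357).

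In the later mitochondrial steps Hadha stood alone. Hadha, the subunit of the trifunctional protein that hydrates and oxidizes long chains, read 7.98, 7.49, 7.72 and 7.53 in KO, against 7.30, 6.16, 7.18 and 6.73 in WT. All KO arrays were higher, and the rise was 0.84 ± 0.24 (1.79-fold, adjusted p = 0.0355). It was called in 10 of 18 alternatives, and not without KO 1 (0.74), KO 2 (0.90), KO 3 (0.82), KO 4 (0.89) or WT 4 (0.80). Its partner subunit Hadhb, the thiolase of the complex, had a dim row, at 1.98 to 2.29 in KO and 1.99 to 2.07 in WT, and a change of 0.15 ± 0.11 (adjusted p = 0.347). The enzymes Hadh (0.14 ± 0.30), Echs1 (0.02 ± 0.23) and Acaa2 (0.23 ± 0.24), a hydroxyacyl-CoA dehydrogenase, a hydratase and a thiolase, had adjusted p of 0.753, 0.945 and 0.493.

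The enzymes that prepare unsaturated fatty acids and those that carry electrons away were not called. The isomerase Eci1 (-0.20 ± 0.21, adjusted p = 0.507) and the reductase Decr1 (-0.19 ± 0.11, adjusted p = 0.239), both mitochondrial, had negative changes. Ech1 (0.24 ± 0.20) and Eci2 (0.44 ± 0.36), isomerases found in both compartments, had positive ones (adjusted p = 0.392 and 0.371). The flavoprotein subunits Etfa (-0.08 ± 0.14) and Etfb (0.31 ± 0.14) had adjusted p of 0.69 and 0.14. Etfdh, which passes their electrons to ubiquinone, read 6.65 to 7.19 in KO and 5.43 to 6.83 in WT, a change of 0.68 ± 0.28 (adjusted p = 0.107). With the replicate number as a block it passed (adjusted p = 0.0462).

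**Figure D2:**
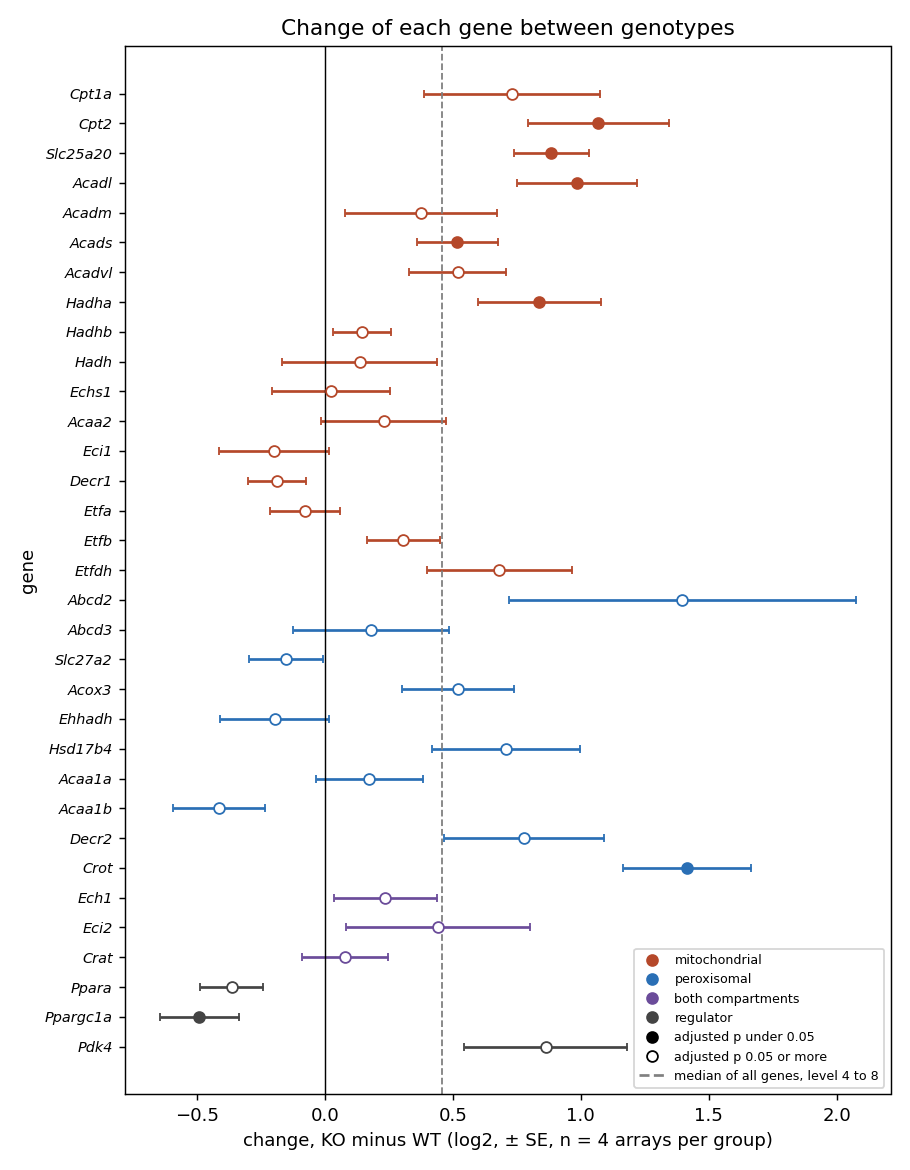
Change (KO minus WT, log2) of each gene with its standard error, n = 4 arrays per group, coloured by compartment; filled points have an adjusted p under 0.05 and the dashed line is the median change of all genes with a mean level of 4 to 8 (0.46). Among 17 mitochondrial genes 5 points are filled and among 10 peroxisomal genes 1, Crot, which lies farthest right of the filled points.

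Among the 10 peroxisomal genes 1 was higher and 0 were lower, and among the 17 mitochondrial genes 5 were higher and 0 lower, while their median changes were alike, 0.35 and 0.38. At levels of 4 to 8 the counts were 1 of 6 and 4 of 15, with medians of 0.44 and 0.38. Whether the 2 compartments differ was not tested, and these counts do not show it. The median deviation of the mitochondrial genes from their means over all arrays was 0.44, 0.21, 0.22 and 0.06 in KO 1 to KO 4 and 0.20, -0.50, 0.01 and -0.53 in WT 1 to WT 4. That of the peroxisomal genes was 0.23, 0.08, -0.03 and 0.20 in KO and 0.09, -0.69, 0.02 and -0.31 in WT. In both compartments WT 2 and WT 4 were low, while WT 1 and WT 3 lay within or near the range of the KO arrays. WT 2 came from a male and WT 4 from the female of the group.

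Of the peroxisomal cycle itself, no gene was called. Acox3, an oxidase for branched chains, read 3.38 to 4.18 in KO and 2.69 to 3.55 in WT (0.52 ± 0.22, adjusted p = 0.111). Hsd17b4, the bifunctional enzyme for branched and very long chains, read 6.21, 6.36, 5.93 and 6.24 in KO, against 6.02, 4.52, 5.86 and 5.50 in WT. KO 3 lay below WT 1, and the change of 0.71 ± 0.29 did not pass (adjusted p = 0.102). Ehhadh, the bifunctional enzyme for straight chains and a classical PPAR alpha target, had a change of -0.20 ± 0.21 (adjusted p = 0.506).

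The thiolases Acaa1a and Acaa1b, close copies of each other, had changes of opposite sign. Acaa1a read 5.22, 4.89, 5.34 and 5.14 in KO, against 5.19, 5.46, 4.47 and 4.78 in WT (0.17 ± 0.21, adjusted p = 0.549). Acaa1b, with a dim row, read 2.22, 1.92, 1.91 and 1.63 in KO, against 2.06, 2.72, 2.44 and 2.11 in WT (-0.41 ± 0.18, adjusted p = 0.121). The groups overlapped for both, and transcripts of such copies could share probes. Decr2, the peroxisomal reductase for unsaturated chains, had a change of 0.78 ± 0.31 (adjusted p = 0.0976) and passed with the replicate block (adjusted p = 0.0271).

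The transporters that bring fatty acids into peroxisomes were not called either. Abcd3, which imports branched and dicarboxylic acids, differed by 0.18 ± 0.30 (adjusted p = 0.673). Abcd2, a very-long-chain transporter known from fat and brain, read 1.68, 5.59, 2.67 and 3.35 in KO, against 1.62, 2.56, 1.82 and 1.70 in WT. KO 2 was far above the rest and KO 1 lay among the WT arrays, so a change of 1.40 ± 0.68 did not pass (adjusted p = 0.154). The replicate block brought it under the threshold (adjusted p = 0.0445), and without KO 2 the change was 0.64. The adipocyte gene Cidec, named after its values were seen, was also highest in KO 2, at 1.58, 6.02, 1.73 and 2.55 in KO 1 to KO 4, against 2.18, 2.18, 2.72 and 2.97 in WT. The summed level of the adipocyte markers ran from 6.88 to 9.75 in KO and 6.92 to 7.79 in WT, and their part in the Abcd2 value was not tested. Slc27a2, which activates very long chains, had a dim row and a change of -0.15 ± 0.14 (adjusted p = 0.443).

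Of the 3 regulators 1 was called, and it was lower. Ppargc1a read 2.52, 2.51, 2.43 and 2.44 in KO, against 3.41, 2.90, 2.72 and 2.84 in WT. Its row was dim, all KO arrays lay below all WT arrays, and the fall was -0.49 ± 0.15 (adjusted p = 0.0477). It was called in 5 of 17 alternatives, and not without KO 1 (-0.51), KO 2 (-0.50), KO 3 (-0.47), KO 4 (-0.48), WT 2 (-0.51) or WT 4 (-0.53). Ppara, also dim, read 2.33, 2.25, 2.18 and 2.21 in KO, against 2.55, 2.87, 2.55 and 2.45 in WT. The groups did not overlap, and the change of -0.36 ± 0.12 did not pass (adjusted p = 0.061; with array weights adjusted p = 0.0499). Dim genes had a median change below 0, as the plot of change against level shows.

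Pdk4, the pyruvate dehydrogenase kinase raised in fasting, read 5.79, 4.62, 4.57 and 5.23 in KO, against 4.88, 3.84, 3.72 and 4.33 in WT. KO 2 and KO 3 lay below WT 1, and the change of 0.86 ± 0.32 did not pass (1.82-fold, adjusted p = 0.0786). Within each replicate number the KO array was the higher one, and with the replicate number as a block the gene passed (adjusted p = 0.00416). With that block 10 of the 33 genes were higher in place of 6, the additional ones being Etfdh, Abcd2, Decr2 and Pdk4.

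**Figure D3:**
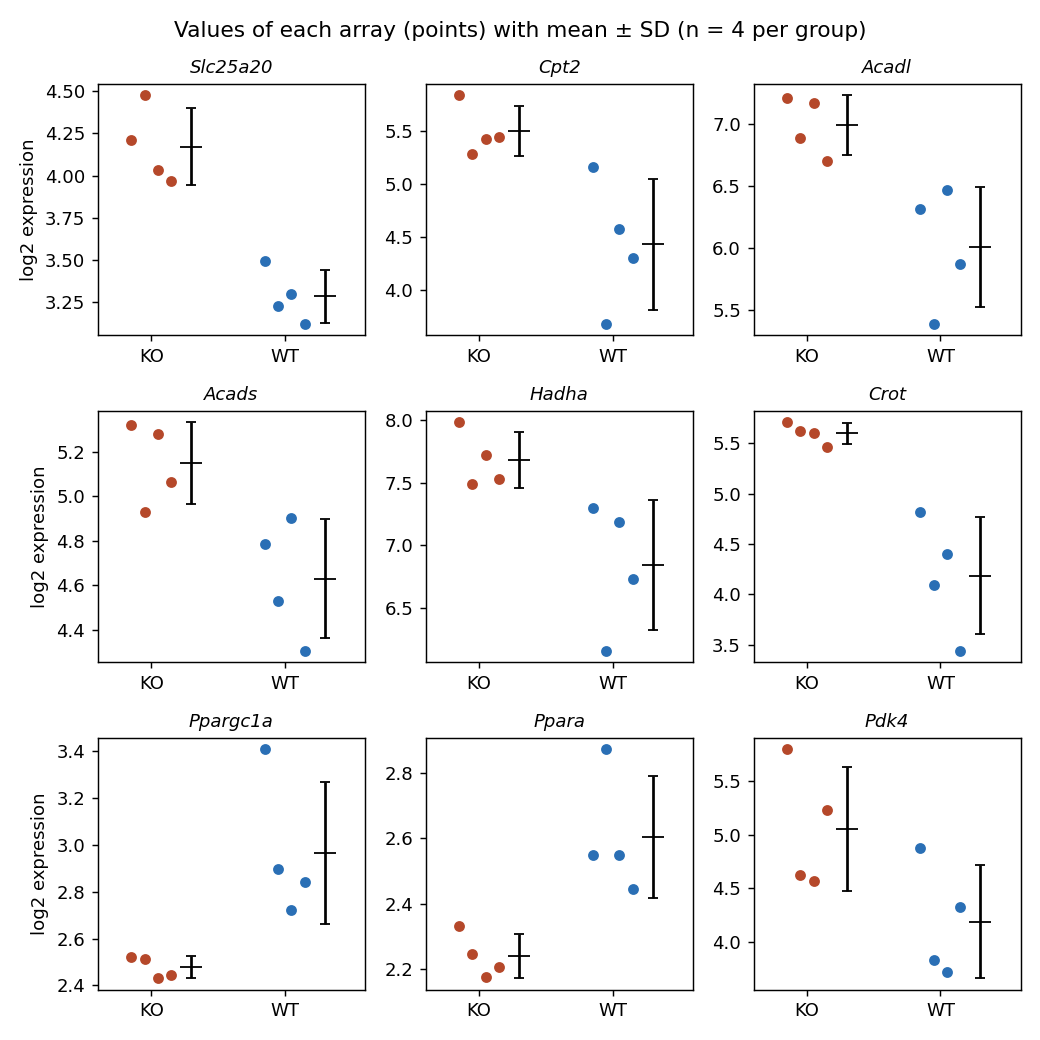
Log2 expression of the called genes and the regulators in each array (points), KO left of WT, with the mean and SD of each group (n = 4). The KO points of Slc25a20 and Crot lie clear of the WT points; those of Pdk4 overlap with them.

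The arrays of each genotype were ordered alike across many of these genes. WT 1 was the highest WT array in 18 of the 30 enzymes and carriers and WT 2 the lowest in 18, while among all genes of level 4 to 8 WT 1 was highest in 46% and WT 2 lowest in 58.2%. KO 1 was the highest KO array in 21 of the 30, against 33.8% of all genes of that range, and KO 4, the female, the lowest in 15, against 14.6%. The SD was larger in WT than in KO for 25 of the 30, with a median of 0.23 in KO and 0.45 in WT. This was also so for 70.4% of all genes of level 4 to 8. Without WT 1, 12 of the 33 genes were higher in KO, the additional ones being Cpt1a, Etfdh, Hsd17b4, Decr2, Eci2 and Pdk4. Of all genes of level 4 to 8, 43.4% were then called higher, against 36.8% with all arrays.

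**Figure D4:**
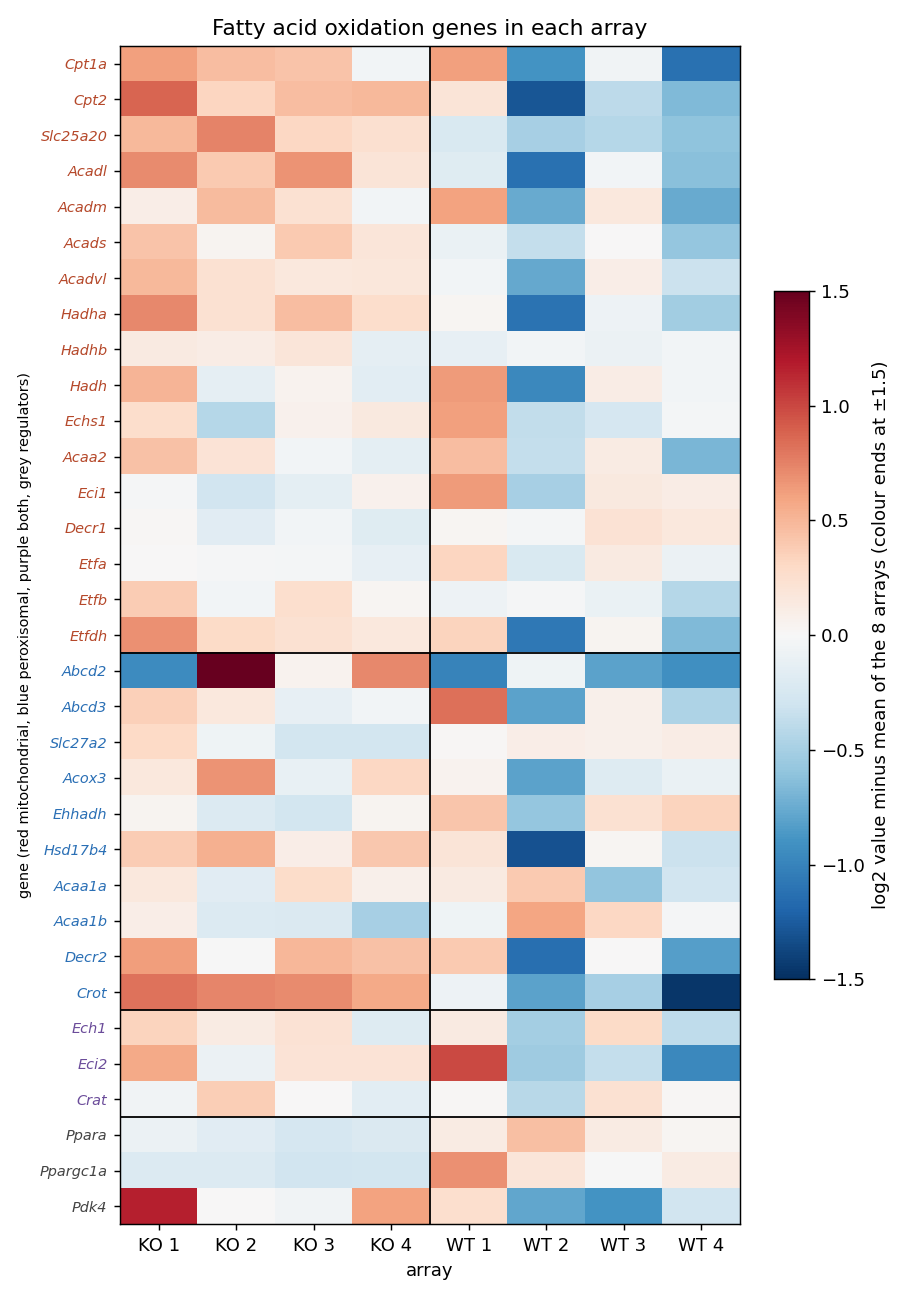
Log2 value of each gene in each array minus its mean over the 8 arrays, KO columns left of WT columns; rows are grouped by compartment (mitochondrial, peroxisomal, both, regulators) and red is above the mean. KO columns are mostly red, WT 2 and WT 4 mostly blue, and WT 1 is red in many mitochondrial rows.

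The change of the set depended on scaling. After a second quantile normalization 15 of the 30 enzymes and carriers had a positive change with a median of 0.02, and after cyclic loess 16 with a median of 0.03. The median of all genes of level 4 to 8 was then 0.07 and 0.08. Under these scalings Slc25a20 (0.66 and 0.67) and Crot (1.04 and 1.03) were still called, while Cpt2, Acadl, Acads, Hadha and Ppargc1a were not. Decr1 and Etfa were then called lower, at -0.59 and -0.44 after quantile normalization and at -0.56 and -0.47 after cyclic loess. Eci1 was called lower after cyclic loess (-0.58). Of the 5996 genes of level 4 to 8, 622 were lower after quantile normalization and 654 after cyclic loess, against 224 as reported. Those called higher numbered 627 and 761, against 2209 as reported.

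**Figure D5:**
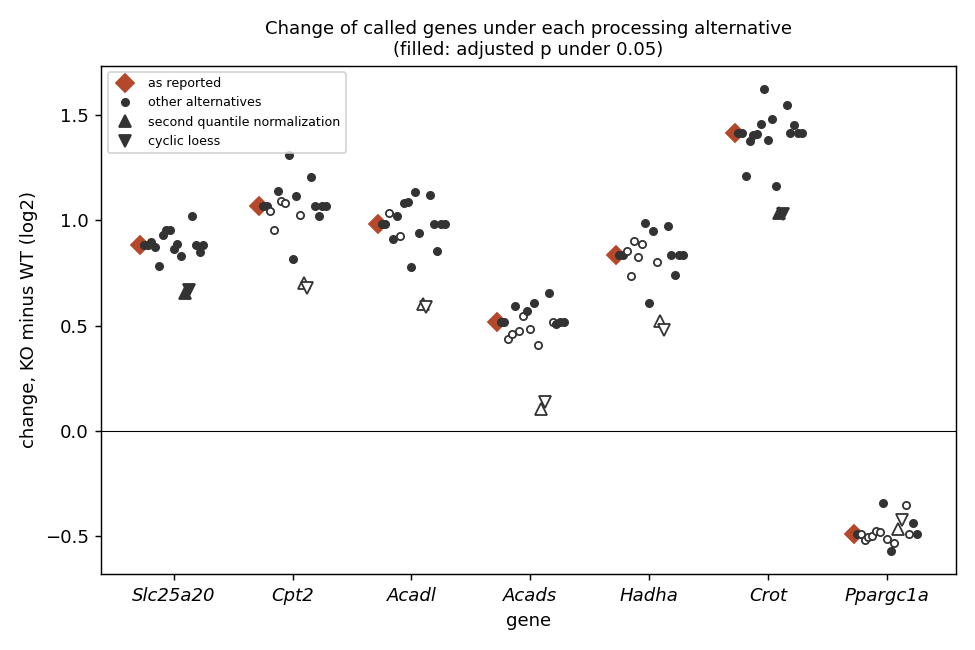
Change (KO minus WT, log2) of the 7 called genes as reported (diamond) and under each processing alternative; filled symbols have an adjusted p under 0.05 and triangles mark the second quantile normalization and cyclic loess. All symbols of Slc25a20 and Crot are filled, and those of Acads under both scalings lie near 0.1 and are open.

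Other genes of the pathway were read from 9 lists of 112 genes, of which 97 were measured, and 19 were higher and 7 lower. Over all genes 14.6% were called higher and 6.99% lower, and at a mean of at least 4 and under 8 these shares were 36.8% and 3.74%. No list was tested as a set, so the counts below are no result about a list. In the list of fatty acid uptake and activation, 4 of 12 measured genes were higher and 0 lower, while the synthetases Acsl1 and Acsl3 had no row of their own. The acyl-CoA synthetase Acsl4, which favours arachidonic acid, read 5.77, 6.83, 6.30 and 6.33 in KO, against 4.32, 4.97, 4.39 and 4.49 in WT. The groups were well apart, and the rise was 1.76 ± 0.23 (3.40-fold, adjusted p = 0.0021). Acsl5 (1.12 ± 0.23, adjusted p = 0.00995), a synthetase of mitochondria and the endoplasmic reticulum, and the acyl-CoA binding domain protein Acbd3 (1.06 ± 0.15, adjusted p = 0.00299) rose too. The fourth was the fatty acid receptor Cd36 (1.49 ± 0.40, adjusted p = 0.0288), named after its value was seen, which is also expressed by macrophages, adipocytes and endothelium. Cd36 lost its call after quantile normalization (1.16), after cyclic loess (1.11), among males, and without KO 2, KO 4 or WT 3, with changes of 1.11 to 1.75 over its alternatives.

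Among other peroxisomal enzymes and carriers, 3 of 12 were higher and 0 lower. Acox2, the oxidase for branched chains and bile acid intermediates, read 4.57, 3.68, 4.99 and 4.24 in KO, against 1.72, 2.22, 1.62 and 1.94 in WT. It was under 3 in every WT array and above 3 in every KO array, and the rise was 2.50 ± 0.26 (5.66-fold, adjusted p = 0.00114). It was called in 17 of 17 alternatives, with changes of 2.29 to 2.73. Agps, which makes ether lipids, rose by 1.24 ± 0.17 (adjusted p = 0.00242) and the carrier Slc25a17 by 0.96 ± 0.29 (adjusted p = 0.0417), though Slc25a17 was called in 8 of 18 alternatives (0.55 to 1.21) and lost its call after quantile normalization (0.57), after cyclic loess (0.55), and when any KO array, WT 3 or WT 4 was left out. Of 13 peroxins, the proteins that build peroxisomes, 1 was higher, the import receptor Pex7 (0.84 ± 0.19, adjusted p = 0.0152), which lost its call after quantile normalization (0.68, adjusted p = 0.0769). With the replicate block 3 of 13 were higher, Pex2 (adjusted p = 0.0201) and Pex3 (adjusted p = 0.048) being added.

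In the list of other mitochondrial acyl-CoA oxidation 3 of 12 were lower, Ivd, Acadsb and Pcca, with a list median of 0.01. In that list 1 was higher, Acad11 (0.71 ± 0.18, adjusted p = 0.0245), named after its value was seen. Where the Acad11 protein lies was not measured, so its rise is not assigned to mitochondria here. Acad11 lost its call after quantile normalization (0.33), after cyclic loess (0.35), among males, and without KO 1, KO 2, KO 4 or WT 4 (0.33 to 0.85 over its alternatives). Ivd, the dehydrogenase of leucine breakdown, read 5.21, 5.21, 5.11 and 5.41 in KO, against 6.16, 6.16, 5.97 and 6.49 in WT. The groups did not overlap, and the fall was -0.96 ± 0.14 (adjusted p = 0.00298), called in 18 of 18 alternatives. Acadsb, which acts on isoleucine products, fell by 0.64 (-0.64 ± 0.14, adjusted p = 0.0119). Pcca, a subunit of propionyl-CoA carboxylase, fell by 0.73 (-0.73 ± 0.15, adjusted p = 0.0105). Acadsb and Pcca lost their call among males, with 3 arrays per genotype.

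PPAR alpha targets outside the set moved in both directions, with 3 of 8 higher and 2 lower. The lipid droplet protein Plin2 rose by 1.45 ± 0.37 (adjusted p = 0.0233), and its relative Plin5, found on droplets beside mitochondria, had a change of -0.51 ± 0.14 (adjusted p = 0.0348). The mitochondrial carrier Ucp3 had a change of -0.51 ± 0.11 (adjusted p = 0.0145); the rows of Ucp3 and Plin5 were dim. The others, named after their values were seen, were the lipase inhibitor Angptl4 (1.26 ± 0.36, adjusted p = 0.0363) and Txnip (1.09 ± 0.34, adjusted p = 0.0454), and each of these 5 genes lost its call under both quantile normalization and cyclic loess. Leaving out KO 4 also ended the call of each, with changes over the alternatives of 1.04 to 1.72 for Plin2, -0.58 to -0.37 for Plin5, -0.57 to -0.30 for Ucp3, 0.96 to 1.51 for Angptl4 and 0.84 to 1.46 for Txnip. Of 11 PPAR factors and coregulators 2 were higher, the corepressor Nrip1 (0.96 ± 0.15, adjusted p = 0.00431) and Med1 (0.45 ± 0.13, adjusted p = 0.035; adjusted p = 0.0594 with the replicate block). Nrip1 lost its call after cyclic loess (0.57), and after quantile normalization it was 0.55 (adjusted p = 0.0497). Med1 also lost its call after quantile normalization (0.03), after cyclic loess (0.04), and without KO 2, KO 3, KO 4, WT 2 or WT 3 (0.03 to 0.58 over its alternatives). Ppard had a change of -0.35 ± 0.13 (adjusted p = 0.0849), and after quantile normalization (-0.77) and cyclic loess (-0.74) it was called lower.

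At the entry of pyruvate into the citric acid cycle, 3 of 10 genes were higher and 2 lower. Pdhb, a subunit of pyruvate dehydrogenase, rose by 0.91 ± 0.20 (adjusted p = 0.0127) and the kinase Pdk3 by 0.61 ± 0.15 (adjusted p = 0.0204), while the kinase Pdk1 had a change of -0.49 ± 0.15 (adjusted p = 0.0403; adjusted p = 0.0555 with the replicate block). The phosphatase Pdp2 (-0.49 ± 0.15, adjusted p = 0.0413) and the subunit Dlat (0.48 ± 0.14, adjusted p = 0.0409), both named after their values were seen, also passed. Dlat, Pdk3 and Pdp2 lost their calls after quantile normalization (0.11, 0.27 and -0.53) and after cyclic loess (0.14, 0.29 and -0.47), where Pdk1 was at -0.90 in both. Leaving out KO 4 or WT 4 ended the calls of Dlat (0.11 to 0.62 over the alternatives), Pdk3 (0.27 to 0.75), Pdk1 (-0.90 to -0.16) and Pdp2 (-0.55 to -0.35), and Dlat, Pdk1 and Pdp2 also lost theirs without KO 2, KO 3 or WT 2, Dlat without KO 1, Pdk1 without WT 3 and Pdp2 without WT 1. With the replicate block 2 of the 10 were higher and 1 lower, Dlat (adjusted p = 0.0741) and Pdk1 being lost. In the citric acid cycle 2 of 15 genes were higher and 0 lower, with a median of 0.43, against 0.46 for all genes of level 4 to 8. The higher ones were malate dehydrogenase Mdh2 (0.64 ± 0.11, adjusted p = 0.00659) and citrate synthase Cs (0.56 ± 0.12, adjusted p = 0.0136). Both calls were lost among males, after quantile normalization (0.37 for Mdh2 and 0.21 for Cs) and after cyclic loess (0.31 and 0.18). With the replicate block 5 of 15 were higher, Idh3g, Sdhc and Sdhd being added. Of 4 ketone body enzymes 0 were called, with Bdh2 (-0.39 ± 0.21, adjusted p = 0.189) the one of smallest p; after cyclic loess 1 was lower, Acat1 (-0.52).

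Cell markers moved between the genotypes as well. The shares to set beside their counts are 14.6% higher and 6.99% lower over all genes, and 36.8% and 3.74% at level 4 to 8. Of 10 macrophage markers 5 were higher (Adgre1, Cd68, C1qb, C1qc and Ms4a7, named after their values were seen) and 0 lower, and their summed level was 9.23 to 10.61 in KO and 7.72 to 9.47 in WT. The summed level of 9 acinar markers was 14.42 to 14.54 in KO and 14.66 to 14.69 in WT, with 3 lower: Bhlha15, Rbpjl and Cela3b. Of 6 fibroblast and stellate markers 1 was higher, Lum, with a summed level of 8.83 to 10.82 in KO and 8.21 to 9.46 in WT. Adipocyte markers were called in 0 of 7, and those of brown fat (5) and skeletal muscle (6), tissues that burn much fat, all had dim rows and 0 calls. The brown fat genes Ucp1, Cidea, Elovl3, Cox7a1 and Cox8b were among these dim rows. Of 4 duct markers 1 was higher, Krt19, and of 6 hepatocyte markers 1, Ahsg, with 0 lower in either list. Of 5 beta cell markers 1 was lower, Mafa, and 0 were higher. These genes were also named after their values were seen. Each of these lists also held changes of the opposite sign, and the list medians were 0.13, 0.08 and 0.10. The part of these cells in the changes of the oxidation genes was not tested.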

How the data were processed

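Total RNA of 8 mouse pancreata was measured on whole-transcript arrays. The authors deposited log2 expression values, 1 table of 41345 rows by 8 arrays; the log base is read from the range of the values. The tools named, per the submitters' processing notes, are limma, oligo and RMA, a method of background correction, quantile normalization and probe summary; versions are not stated. The sources used here give no background signal, probe positions, array build or scan batch; precision is limited by the number of arrays. All 8 columns were mapped to samples.

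Rows with 1 gene symbol in the platform annotation (23521; 1814 had several and 16010 none) were kept. For a gene with several rows the row of highest mean was taken, giving 22180 genes; matching to RefSeq GRCm38.p6 changed 0 symbols. KO was compared with WT by limma 3.58.1 (lmFit, eBayes) in R 4.3.3, with genotype as the factor and Benjamini-Hochberg adjustment over all genes. A row is called dim here when its mean is under 3. A list's summed level is log2 of the sum of its linear values. Steps were tested on simulated data. A genotype by sex interaction, resting on 1 female per genotype, was also tested: 0 of the 33 genes and 1 of all genes passed.

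Members and lists were chosen with earlier results of these data known. The rule for named genes took all members, with array values for called ones of at least 1 log2 unit, the regulators and the related pairs, and up to 3 genes of smallest p per other pathway list; array values of other members were added where a result turns on them. The main fit did not pair the arrays, and the replicate number entered as a block only as an alternative. Deviations from the group means correlated across genes at 0.26, 0.17, 0.11 and 0.14 for arrays with the same number. For arrays with different numbers the values ran from -0.21 to 0.12, so the match was weak for numbers 3 and 4. Number 4 is also the female of each genotype, so the block cannot separate it from sex. The labels name no shared litter. Alternatives were the replicate block, sex as a term, males alone, leaving out each array, quantile normalization done again, cyclic loess, median centring, trend with robust eBayes, array weights, a minimum mean of 4 and the mean of a gene's rows.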

Additional observations from a re-analysis of the deposited data

How the results depend on the processing

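Of 33 genes, 6 were higher and 1 lower in KO as reported. The count of higher genes was 10 with the replicate block, 2 among males, 2 after quantile normalization was repeated and 2 after cyclic loess, and 2 to 12 when an array was left out: 3 without KO 1, 2 without KO 3, 3 without KO 4, 3 without WT 4 and 12 without WT 1. The count of lower genes was 0 with sex as a term, among males, after median centring, with trend and robust eBayes and with the minimum mean of 4. It was 2 with array weights and after quantile normalization, 3 after cyclic loess and 0 to 1 when an array was left out. Over all 22180 genes 1551 were lower as reported, 145 among males, 615 after median centring and 2314 with array weights. After quantile normalization 1142 were lower, and after cyclic loess 1178. The median change of the mitochondrial genes (0.38) ran from 0.10 after quantile normalization to 0.57 without WT 1. That of the peroxisomal genes (0.35) ran from 0.15 to 0.55. Each shift was smaller than the pooled SD, between arrays of a genotype, of the median deviation of these genes (0.28 and 0.27). This SD is not the error of a change between genotypes, so it does not show that the medians were stable. With median centring the median over all genes was 0.08, against -0.06 as deposited.

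No called gene changed sign. Genes that were not called did: after quantile normalization Abcd3 (-0.21), Acaa1a (-0.25), Acaa2 (-0.19), Acadm (-0.028), Crat (-0.33), Ech1 (-0.16), Echs1 (-0.40), Etfb (-0.12) and Hadh (-0.18); after cyclic loess Abcd3 (-0.22), Acaa1a (-0.22), Acaa2 (-0.17), Acadm (-0.030), Crat (-0.32), Ech1 (-0.17), Echs1 (-0.38), Etfb (-0.10), Hadh (-0.21) and Slc27a2 (0.0089). Echs1 was -0.028 among males, Etfa 0.060 after median centring, and Crat -0.039 with array weights and -0.26 as the mean of its rows. With an array left out Abcd3 ran from -0.057 to 0.48, Crat from -0.047 to 0.17, Echs1 from -0.097 to 0.23, Hadh from -0.17 to 0.37 and Etfa from -0.16 to 0.019. The replicate block changed no call of these genes beyond Etfdh, Abcd2, Decr2 and Pdk4. Dim rows limit what Hadhb, Acaa1b, Slc27a2, Abcd2, Ppara and Ppargc1a can show.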
